A study of Drosophila melanogaster with 12 samples.

Results

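The temperature response of gene expression was compared between 2 strains of Drosophila melanogaster, WT flies and ADAR hypomorph flies, in RNA from fly heads. The question was which genes respond to temperature in one strain and not, less, more or in the opposite direction in the other. All 12 of the 12 libraries of the series were used: 3 of WT at 18°C, 3 of WT at 29°C, 3 of ADAR hypomorph at 18°C and 3 of ADAR hypomorph at 29°C. The labels call the flies grown at 18°C or 29°C, while the study writes that they were entrained at these temperatures. Which life stages were kept at these temperatures is not clear from these words. Total RNA was taken from heads of flies 3 to 6 days after eclosion, and only the 3' ends of poly(A) RNA were sequenced. Of the 15423 genes in the count table, 9553 had enough counts to be tested.

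The hypomorph carries a transposon insertion in an intron of Adar that lowers the level and activity of the enzyme. Its allele is written Adar5G1 in the methods of the study, whose discussion uses that name for other flies. There was 1 WT and 1 hypomorph strain, so the allele and the rest of the genetic background cannot be told apart. The sex of the flies is not stated in the labels, nor whether the 3 libraries of a group came from separate cultures, so p-values measure the spread between these libraries, which may be technical. In whole heads, fewer cells of a type and less RNA per cell cannot be told apart.

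ADAR converts adenosines in double-stranded RNA into inosines, which the ribosome reads as guanosines. In flies its best known targets are transcripts of neurons, among them ion channels and proteins of the synapse, and flies without the enzyme have locomotor and neurological defects. Heads of adult flies hold the brain and the eyes, and also muscle, cuticle, antennae and a fat body, a tissue with the roles of liver and adipose tissue that makes yolk proteins in females and much of the antimicrobial response. Flies are ectotherms, so a lasting change of temperature alters the levels of many of their transcripts.

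In each strain the response of a gene is the log2 ratio of its level at 18°C to that at 29°C. A positive response means a higher level at 18°C. The difference of responses is the value for the hypomorph from which that for WT is subtracted, so a negative difference means a response shifted towards 29°C in the hypomorph. Both were taken from 1 fit of edgeR's quasi-likelihood model to the 12 libraries, and "called" means a Benjamini-Hochberg adjusted p under 0.05 over the 9553 genes. Levels are normalised counts, that is counts scaled to a common library size. Levels of single libraries are given in the order library without a number, replicate 2, replicate 3.

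The libraries held 4409119 to 8806472 counts. Transcripts of the eye (ninaE, 11743 to 109534 normalised counts), of neurons (elav, 211 to 402) and of glia (repo, 128 to 282) were present in every library. Jon65Aiii, a digestive protease and marker of the gut, stood at 808 in replicate 2 of WT at 29°C and at 295 in replicate 2 of the hypomorph at 29°C, against 0 to 14.1 in the other libraries. Normalisation factors were 1.08 to 1.16 in the hypomorph at 18°C and 0.925 to 0.981 in the other groups, which goes with the share of counts that the 10 most abundant genes took (10.8% to 11.7% in the hypomorph at 18°C, 12.8% to 16.7% elsewhere). Adar itself had 279, 284 and 245 normalised counts in WT at 18°C, 259, 275 and 294 in WT at 29°C, 262, 157 and 195 in the hypomorph at 18°C and 171, 163 and 151 in the hypomorph at 29°C. Its level in the hypomorph lay below every WT library in all but the unnumbered library at 18°C, and its difference of responses (0.36 ± 0.20, SE) was not called (adjusted p = 0.443).

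The response to temperature differed between the strains for 222 of the 9553 genes (2.32%), with an unadjusted p under 0.05 for 1327 (13.9%). The difference was negative for 161 of the 222 genes (1.69% of all genes tested) and positive for 61 (0.639%). This split depends on the scaling. When libraries were scaled by their total counts alone, the median difference over all genes moved from 0.02 to 0.15 and the split became 108 negative against 189 positive genes. DESeq2 called 311 of the 9553 genes, 238 negative and 73 positive. Counts of a list under DESeq2 or under total counts are to be read beside these totals. In the main fit the median size of a called difference was 0.68 on the log2 scale (quartiles 0.52 and 1.08). In that fit 66 genes (29.7%) differed by more than 1. For comparison, 3190 genes (33.4%) responded to temperature in WT, 17.3% with a higher level at 18°C and 16.1% at 29°C, and 3075 (32.2%) in the hypomorph, 16.6% and 15.6%. Of these, 2009 genes responded in both strains, 1980 of them in the same direction. A difference was called for 165 (5.17%) of the WT responders and for 149 (4.85%) of the hypomorph responders. A gene that responded in 1 strain alone was thus seldom shown to differ: the difference was called for 73 of the 1181 genes called in WT alone and for 57 of the 1066 called in the hypomorph alone.

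The 222 genes were sorted by their response in each strain. For 73 genes the response was lost, that is called in WT and not in the hypomorph, and 57 of these were higher at 18°C in WT. Their median response was 0.59 in WT and 0.01 in the hypomorph. For 30 genes it was weakened (called in both, smaller in the hypomorph), and 21 of these were higher at 18°C. For 29 genes it was reversed, of which 22 were higher at 18°C in WT and higher at 29°C in the hypomorph. For 57 genes a response was gained in the hypomorph, in 40 of them with a higher level at 29°C, and for 33 genes it was strengthened, 21 of them higher at 29°C. Without replicate 3 of WT at 29°C the total fell from 222 to 154, with 107 negative differences, 47 lost, 17 weakened and 20 strengthened responses. Without the unnumbered library of the hypomorph at 29°C there were 48 lost, 18 weakened and 37 gained responses.

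**Figure D1:**
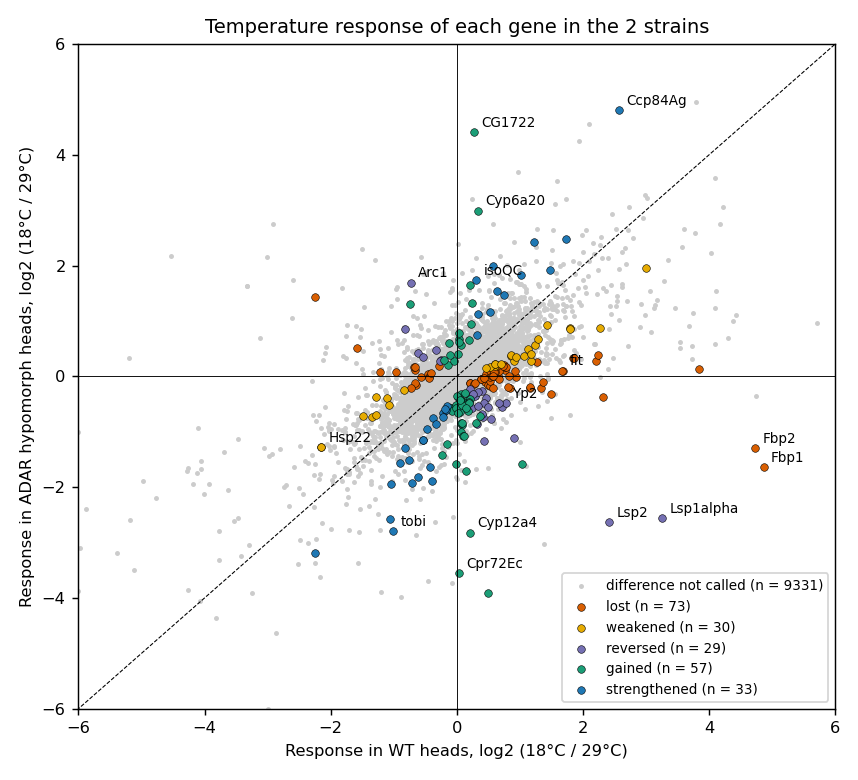
Response to temperature of each gene, log2 (18°C / 29°C), in WT heads (x axis) and ADAR hypomorph heads (y axis), from 3 libraries per strain and temperature. Grey points are the genes whose difference was not called, coloured points are the 222 called genes by class, the dashed line marks equal responses, and 22 grey genes lie outside the plotted range of 6. The storage protein genes Fbp1, Fbp2, Lsp1alpha and Lsp2 lie far to the lower right, high at 18°C in WT and not in the hypomorph, whereas Cpr72Ec and Cyp12a4 lie low near the vertical axis, with a response in the hypomorph alone.

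The plot of the responses of all genes shows these classes as sectors around the diagonal. By chromosome, the called genes made up 2.8% of the genes tested on X, 2.65% on 2R, 2.46% on 2L, 2.28% on 3L, 1.77% on 3R and 1.16% on 4.

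The largest differences were in the storage proteins of the fat body. Larval serum proteins (Lsp) and fat body proteins (Fbp) are made by the larval fat body and stored for metamorphosis, and Lsp2 is also made by the adult fat body. All 6 of the genes tested had a called, negative difference, against 1.69% of all genes tested, with a median of -5.43. Lsp2 had 8164, 7107 and 6716 normalised counts in WT at 18°C, 1408, 1452 and 1261 in WT at 29°C, 213, 152 and 210 in the hypomorph at 18°C and 1308, 766 and 1474 in the hypomorph at 29°C. The cold was thus the high state in WT and the low state in the hypomorph, with no overlap between temperatures in either strain. The response of Lsp2 was 2.42 in WT and -2.63 in the hypomorph (difference -5.04 ± 0.27, SE, adjusted p = 5.5e-08, edgeR's quasi-likelihood test), while at 29°C the strains overlapped.

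Fbp1 had 233, 72.4 and 206 normalised counts in WT at 18°C, 9.79, 0.954 and 6.7 in WT at 29°C, 14.9, 4.32 and 5.13 in the hypomorph at 18°C and 25.2, 34.8 and 7.72 in the hypomorph at 29°C. Only WT at 18°C stood apart from the other groups. Its response of 4.87 in WT was lost in the hypomorph (difference -6.50 ± 0.92, adjusted p = 0.001), and Fbp2 had the same form (responses 4.73 and -1.29, difference -6.03 ± 0.87). Lsp1alpha, which had 30.5 to 77.8 normalised counts in WT at 18°C and 17 or fewer in every other library, was reversed (3.25 in WT, -2.56 in the hypomorph, difference -5.81 ± 0.90). Lsp1gamma was lost (2.23 and 0.38), a call that was not made in 2 of the 12 fits that leave out 1 library (highest adjusted p = 0.0657). Lsp1beta differed in form. It was higher at 29°C in both strains, and more so in the hypomorph (-0.72 and -1.92, difference -1.21 ± 0.23, adjusted p = 0.0084), since its level in the hypomorph at 18°C (160, 116 and 127) lay below that of every other group. A filter of at least 10 counts in every library, which takes out genes that are low in 1 group, left 3 of the 6 called.

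The yolk protein genes, which the fat body of females expresses for export to the egg, had a higher level in WT than in the hypomorph at both temperatures and the larger gap at 18°C. Yp1 had 230967, 235047 and 220685 normalised counts in WT at 18°C, 254809, 260811 and 246592 in WT at 29°C, 49489, 76838 and 73435 in the hypomorph at 18°C and 159108, 146112 and 161197 in the hypomorph at 29°C. No group overlapped another. The response was gained in the hypomorph (-0.15 in WT, -1.22 in the hypomorph, difference -1.07 ± 0.16, adjusted p = 0.0014).

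Yp2 had 290334, 274453 and 260254 normalised counts in WT at 18°C and 166228, 153802 and 160527 at 29°C, against 53425, 81647 and 73904 in the hypomorph at 18°C and 100563, 86113 and 105854 at 29°C. The order of the temperatures was opposite in the strains (0.78 and -0.49, difference -1.26 ± 0.16, adjusted p = 0.00041). Yp3 was likewise reversed (0.39 and -0.68, difference -1.07 ± 0.16, adjusted p = 0.0015). The 3 genes together took 9.44% to 10.2% of all counts in WT at 18°C, 7.46% to 7.88% in WT at 29°C, 2.4% to 3.44% in the hypomorph at 18°C and 4.36% to 5.06% in the hypomorph at 29°C. Leaving these 3 genes out of the fit gave 217 called genes.

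A further gene of the female head fat body, fit (female-specific independent of transformer), had 9990, 9643 and 7310 normalised counts in WT at 18°C, 2971, 2925 and 2570 in WT at 29°C, 1043, 1549 and 1209 in the hypomorph at 18°C and 1068, 1275 and 1208 in the hypomorph at 29°C. The temperatures were far apart in WT and overlapped in the hypomorph, so the response was lost (1.67 and 0.10, difference -1.57 ± 0.19, adjusted p = 0.00021). The antisense RNA CR45046, on chromosome arm 3R like fit, had the same pattern (1.68 and 0.10). Neither gene positions nor the use of strand in counting are given, so whether the pair shares reads is not known. The RNAs of the male dosage compensation complex, roX1 and roX2, are markers of male cells. In the hypomorph roX1 had 7902, 4639 and 4226 normalised counts at 18°C and 2174, 2942 and 2868 at 29°C, against 2761 to 4271 over both temperatures in WT (difference 1.02 ± 0.29, adjusted p = 0.083, not called). For roX2 the levels were 22.9 to 48.8 in WT at 18°C, 183 to 217 in WT at 29°C, 87.1 to 128 in the hypomorph at 18°C and 264 to 359 in the hypomorph at 29°C (difference 0.95, adjusted p = 0.11). Of the 10 yolk and sex-biased head genes listed, these 2 included, 4 had a called difference, all negative, beside 1.69% over all genes. The list was split, with 5 members below 0 and 5 above, roX1 and roX2 among the latter. At an unadjusted p under 0.05 it held 9 genes (13.9% over all genes), and DESeq2 called 4 negative and 1 positive. The part of sex composition in these differences was not tested.

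**Figure D2:**
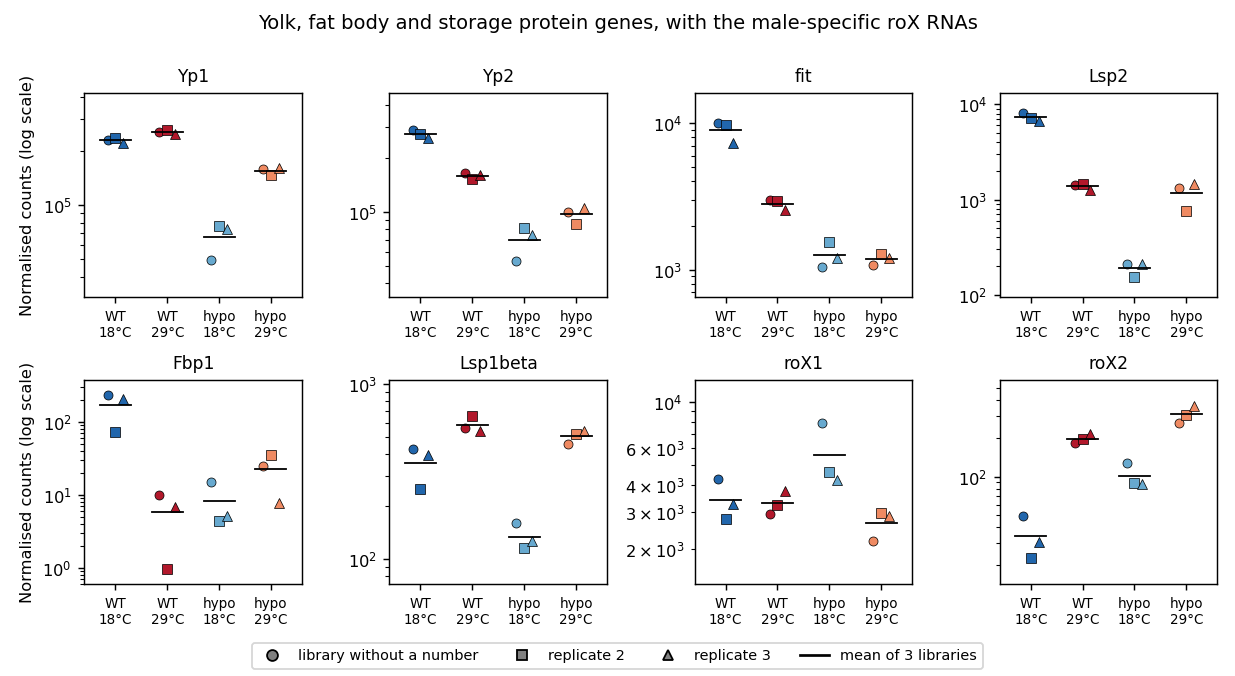
Normalised counts (log scale) of Yp1, Yp2, fit, Lsp2, Fbp1, Lsp1beta, roX1 and roX2 in the 12 libraries by strain and temperature, with the mean of 3 libraries as a line and the symbol giving the library number. Lsp2 falls from 6716 to 8164 in WT at 18°C to 152 to 213 in the hypomorph at 18°C, while the strains overlap at 29°C, and roX1 is highest in the unnumbered library of the hypomorph at 18°C (7902).

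The panels of fat body genes show which groups stand apart. For Lsp2 the hypomorph at 18°C lay lowest and WT at 18°C highest, for Lsp1beta the hypomorph at 18°C lay lowest, and for Fbp1 and fit WT at 18°C lay highest.

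Other genes known from the fat body were also called. Rfabg (apolipophorin, the main carrier of lipids in the blood) was higher at 18°C in WT and did not respond in the hypomorph (0.29 and -0.12, difference -0.42 ± 0.08, adjusted p = 0.012). The odorant binding protein gene Obp99b lost its response (1.37 and -0.10, difference -1.47 ± 0.28), as did smp-30, the fly homologue of regucalcin (0.83 and 0.01, difference -0.82 ± 0.15). For Obp99b, levels in the hypomorph overlapped between temperatures (532, 737 and 660 at 18°C, 891, 552 and 629 at 29°C), whereas WT had 1673, 989 and 1074 at 18°C and 410, 557 and 470 at 29°C.

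Of 16 genes of fatty acid synthesis and storage lipids tested, 5 had a called difference (Rfabg among them), all negative, beside 1.69% negative over all genes, and the median of the list was -0.15 against 0.02 over all genes. ATPCL, the ATP citrate lyase that supplies acetyl-CoA in the cytosol, had 1827, 1744 and 1986 normalised counts in WT at 18°C, 1460, 1396 and 1375 in WT at 29°C, 1383, 1352 and 1439 in the hypomorph at 18°C and 1568, 1710 and 1748 in the hypomorph at 29°C. WT was higher in the cold and the hypomorph in the warmth, without overlap (0.39 and -0.27, difference -0.66 ± 0.09, adjusted p = 0.00096). AcCoAS, which makes acetyl-CoA from acetate, was reversed in the same way (0.21 and -0.38, difference -0.59 ± 0.09). FASN1, the fatty acid synthase, gained a response towards 29°C (0.14 and -0.30, difference -0.44 ± 0.10). ACC, the acetyl-CoA carboxylase, lost its response (0.59 and 0.18, difference -0.41 ± 0.10). The calls of FASN1 and ACC were not made in 7 and 10 of the 12 fits with 1 library left out (highest adjusted p = 0.0786 and 0.0956). Under scaling by total counts 3 of the 16 genes were called, and the list median was -0.02 beside a median of 0.15 over all genes.

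In the handling of sugars, 4 of 11 genes of trehalose, glycogen and sugar metabolism were called, all negative, with a median of -0.49, beside 1.69% negative over all genes. DESeq2 called 8 of the 11, also all negative, beside 238 negative differences among all 9553 genes. GlyP, the glycogen phosphorylase, had 4065, 4767 and 4450 normalised counts in WT at 18°C and 3061, 3131 and 3061 at 29°C, against 3229, 3462 and 3849 in the hypomorph at 18°C and 3709, 3410 and 3444 at 29°C. The temperatures were apart in WT and overlapped in the hypomorph (0.52 and 0.00, difference -0.52 ± 0.10, adjusted p = 0.01). Gpdh, the glycerol phosphate dehydrogenase, had a weakened response (0.86 and 0.36, difference -0.50 ± 0.08), and Sodh-1, a sorbitol dehydrogenase, a lost one (0.92 and 0.10, difference -0.81 ± 0.13).

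The fourth gene, tobi (target of brain insulin, an alpha-glucosidase expressed in the fat body), was higher at 29°C in both strains. Its levels were 195, 173 and 147 in WT at 18°C, 370, 412 and 247 in WT at 29°C, 13.6, 18.2 and 30.8 in the hypomorph at 18°C and 142, 130 and 183 in the hypomorph at 29°C. The hypomorph at 18°C lay below all other libraries, and the response was strengthened (-1.0 and -2.80, difference -1.79 ± 0.34, adjusted p = 0.0086).

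Of 14 glycolytic genes tested, 4 had a called difference and all 4 were negative, beside 1.69% over all genes, with a list median of -0.23. Pgi, the glucose phosphate isomerase, had 4431, 4461 and 4376 normalised counts in WT at 18°C, 4306, 4208 and 3969 in WT at 29°C, 3724, 3891 and 3802 in the hypomorph at 18°C and 5544, 5429 and 5368 in the hypomorph at 29°C. The hypomorph was lowest in the cold and highest in the warmth (0.09 and -0.52, difference -0.61 ± 0.07, adjusted p = 0.00018). Ald, the aldolase, gained a response in the same direction (0.06 and -0.32, difference -0.38 ± 0.07), Hex-C, a hexokinase, lost its response (0.62 and 0.18, difference -0.44 ± 0.10) and Gapdh1 had a weakened one (0.46 and 0.15, difference -0.31 ± 0.07). The calls of Hex-C and Gapdh1 are less firm, as they were not made in 6 and 9 of the 12 fits with 1 library left out (highest adjusted p = 0.0913 and 0.104), and 2 glycolytic genes were called in 6 of these fits and under scaling by total counts. The gluconeogenic enzyme gene fbp (fructose bisphosphatase) was also called (0.15 and -0.57, difference -0.73 ± 0.10).

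Lists of 2 side pathways were added after their members' values had been seen, so their counts and medians are a description only. Of 7 genes of the pentose phosphate pathway, which yields NADPH and pentoses, 5 had a called difference, all negative, beside 1.69% over all genes. The list median was -0.68. Zw, the first enzyme of the pathway, had 772, 905 and 833 normalised counts in WT at 18°C, 578, 544 and 466 in WT at 29°C, 618, 622 and 651 in the hypomorph at 18°C and 663, 648 and 648 in the hypomorph at 29°C. The response of Zw in WT was lost (0.66 and -0.05, difference -0.71 ± 0.12, adjusted p = 0.0027). The transketolase gene CG8036 was reversed (0.34 and -0.54, difference -0.87 ± 0.10), and Taldo and Pgd gained a response towards 29°C (differences -0.69 ± 0.10 and -0.68 ± 0.12). Rpi was strengthened (-0.23 and -0.73), a call not made in 5 of the 12 fits with 1 library left out (highest adjusted p = 0.0727).

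The other added list, of galactose and UDP-sugar conversion, had 4 of 5 genes called, all negative, beside 1.69% over all genes, and 2 of 5 under scaling by total counts. Galk, the galactokinase, was reversed (0.34 and -0.28, difference -0.62 ± 0.08), UGP and Galt lost their responses (0.59 and 0.07 for UGP, 0.74 and 0.19 for Galt) and Pgm gained one (0.00 and -0.35). Calls of Galt, Pgm and UGP were not made in 8, 11 and 1 of the 12 fits with 1 library left out. Men, the cytosolic malic enzyme and a further source of NADPH, had 2554, 2566 and 2531 normalised counts in WT at 18°C and 1095, 1074 and 1055 at 29°C, against 1133, 1083 and 1166 in the hypomorph at 18°C and 771, 780 and 735 at 29°C. All 4 groups were apart, and the response was weakened (1.25 and 0.57, difference -0.68 ± 0.08, adjusted p = 0.00017).

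Of 28 contractile protein genes of muscle tested, 7 had a called difference and all 7 were negative, beside 1.69% over all genes. The median difference was -0.38, and 25 of the 28 lay below 0. Mlc1, a myosin light chain, had 3992, 4624 and 4929 normalised counts in WT at 18°C, 2505, 2422 and 2311 in WT at 29°C, 4116, 4315 and 4447 in the hypomorph at 18°C and 3895, 3350 and 3317 in the hypomorph at 29°C. The strains overlapped at 18°C and stood apart at 29°C, where the hypomorph was higher (0.90 and 0.29, difference -0.62 ± 0.11, adjusted p = 0.0068).

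Among the thin filament genes, Tm1 (tropomyosin), up (troponin T) and wupA (troponin I) lost their responses, with 0.78, 0.73 and 0.58 in WT and 0.17, 0.18 and 0.02 in the hypomorph. The differences of Tm1, up and wupA were -0.61 ± 0.10, -0.55 ± 0.10 and -0.56 ± 0.10. Prm (paramyosin), Mlc2 and Act57B, which completed the 7, had weakened responses (differences -0.58 ± 0.11, -0.48 ± 0.10 and -0.63 ± 0.13), of which Mlc2 was not called in 4 of the 12 fits with 1 library left out (highest adjusted p = 0.0694). Mhc, the myosin heavy chain, had a difference of -0.35 ± 0.10 that was not called (adjusted p = 0.1). The number of called muscle genes was 12 with DESeq2 and 6 with total counts alone, beside 311 and 297 called among all 9553 genes.

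**Figure D3:**
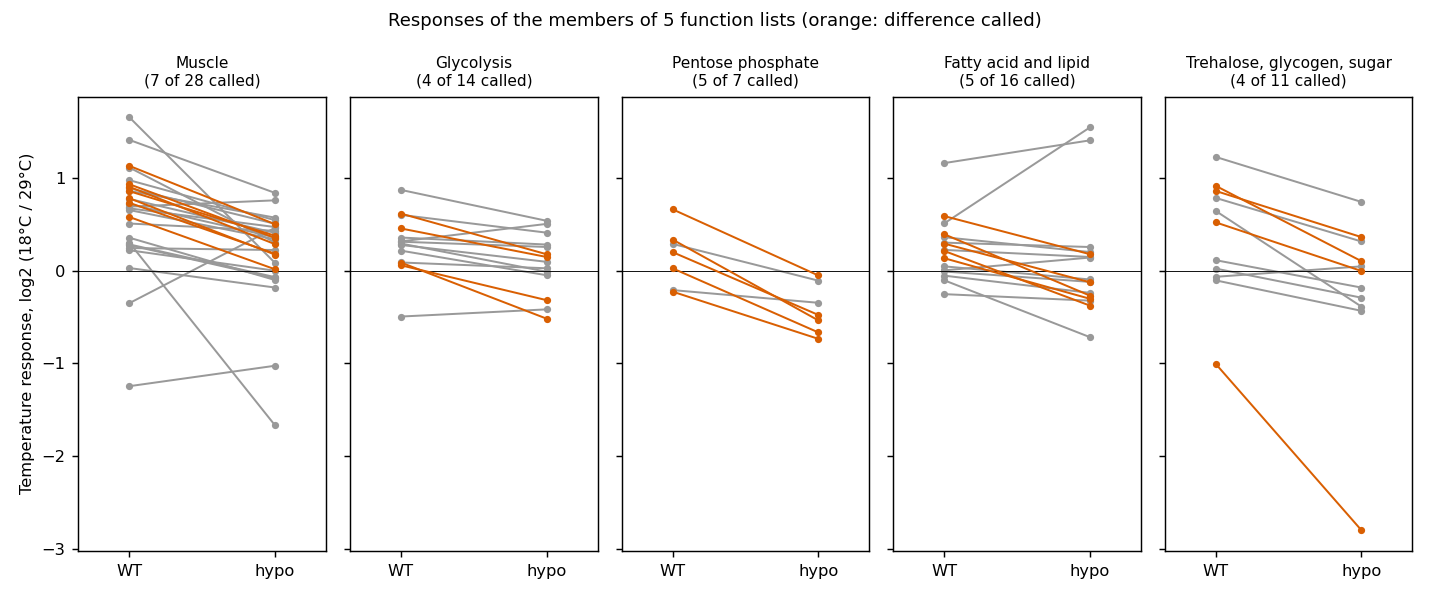
Response to temperature, log2 (18°C / 29°C), of each tested member of 5 lists (muscle, glycolysis, pentose phosphate pathway, fatty acid synthesis and storage lipids, and trehalose, glycogen and sugar metabolism) in WT and in ADAR hypomorph heads. The pentose phosphate list was added after its members' values had been seen. Each line is 1 gene and orange lines are genes with a called difference. Every orange line slopes down from WT to the hypomorph, and the lowest one in the last panel is tobi (-1.0 and -2.80).

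In the plot of the 5 lists, the orange lines of muscle start at 0.58 (wupA) or above in WT and end nearer to 0, whereas several of those of the pentose phosphate and fatty acid lists cross 0. The respiratory chain had 2 called genes of 65 (3.08%, near the 2.32% over all genes), and 6 with DESeq2. They were ND-13B, a subunit of complex I (0.00 and -0.58, difference -0.57 ± 0.10, adjusted p = 0.0039), and Cyt-c1 of complex III (0.01 and -0.37, difference -0.38 ± 0.09), which was not called in 6 of the 12 fits with 1 library left out. The list median was -0.10 against 0.02 over all genes, and 0.03 against 0.15 under scaling by total counts. Of the 65 genes, 60 lay below 0, a lean that was not tested. At an unadjusted p under 0.05 the list held 17 genes (13.9% over all genes). By edgeR's test none of 86 cytosolic ribosomal protein genes, 73 mitochondrial ribosomal protein genes, 34 proteasome genes and 20 vacuolar ATPase genes was called. The numbers at an unadjusted p under 0.05 were 2, 3, 1 and 1, and DESeq2 called 1 cytosolic ribosomal protein gene and none of the other lists.

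Genes of amino acid metabolism were looked at after their values were seen. Got2 (mitochondrial aspartate aminotransferase) and arg (arginase) were reversed (differences -0.57 ± 0.07 and -1.32 ± 0.20), SpdS (spermidine synthase) gained a response (0.11 and -1.08, difference -1.20 ± 0.13) and CG9510, current name Argl (argininosuccinate lyase), lost one (0.81 and -0.19, difference -1.0 ± 0.10). The aldo-keto reductase gene CG6084, current name Akr1B, lost its response with 2496, 2463 and 2523 normalised counts in WT at 18°C against 1255 to 1458 in the 9 other libraries (0.94 and -0.02, difference -0.96 ± 0.08, adjusted p = 1.2e-05). In CG6084 the level of WT at 18°C alone stood apart. Gnmt, the glycine N-methyltransferase, went the other way (-0.74 and 1.30, difference 2.04 ± 0.41, adjusted p = 0.012). In Gnmt the libraries of the hypomorph at 18°C spread from 283 to 881 normalised counts and the call was not made without the unnumbered library of the hypomorph at 29°C (adjusted p = 0.0513).

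Single genes with a strong response in the hypomorph alone were found among cuticle proteins and cytochrome P450 enzymes. Cpr72Ec, a protein of the chitin-binding cuticle family, had 447, 394 and 398 normalised counts in WT at 18°C, 421, 369 and 414 in WT at 29°C, 210, 219 and 318 in the hypomorph at 18°C and 2376, 3245 and 3212 in the hypomorph at 29°C. The WT temperatures overlapped and the hypomorph at 29°C stood far above every other library. The gained response was -3.55, against 0.04 in WT (difference -3.59 ± 0.20, adjusted p = 8.1e-08).

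Of 50 genes tested in the cuticle list, 3 (6.0%) were called, 2 negative and 1 positive, beside 2.32% of all genes. The 50 include Cpr, which is not a cuticle protein and was not called. Ccp84Ag, the positive one, was higher at 18°C in both strains (153, 124 and 212 against 28.3, 31.5 and 23.4 in WT, 255, 189 and 219 against 8.41, 10.5 and 3.86 in the hypomorph). The groups did not overlap by temperature, and the response of Ccp84Ag was strengthened (2.57 and 4.81, difference 2.24 ± 0.39, adjusted p = 0.0048). Cpr47Ea lost its response (1.26 and 0.26, difference -1.0 ± 0.24), and outside the list the chitin deacetylase-like gene Cda4 had a weakened one (2.27 and 0.87). The calls of Cpr47Ea and Cda4 were not made in 10 and 7 of the 12 fits with 1 library left out (highest adjusted p = 0.101 and 0.102). Without the unnumbered library of WT at 18°C, 5 genes of the cuticle list were called, beside 214 of all 9766 genes tested in that fit.

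Cytochrome P450 enzymes oxidise hormones, lipids and toxins. The list had 72 genes tested, among them Cyp1, Cyt-b5 and Cyt-b5-r, which are not P450 enzymes and were not called. Of the 72, 6 (8.33%) were called, beside 2.32% of all genes. Of these, 5 were negative and 1 positive, or 3 and 3 under scaling by total counts. Cyp12a4, a mitochondrial P450, had 644, 597 and 671 normalised counts in WT at 18°C, 528, 584 and 537 in WT at 29°C, 6.79, 11.2 and 14.5 in the hypomorph at 18°C and 85, 88.1 and 69.5 in the hypomorph at 29°C. The hypomorph lay far below WT at both temperatures and farther at 18°C (0.21 and -2.82, difference -3.03 ± 0.21, adjusted p = 6.6e-07). A gene outside the naming rule with the same form was Rab3-GEF, an exchange factor of the synaptic vesicle GTPase Rab3 (133 to 156 in WT at 18°C, 126 to 144 in WT at 29°C, 9.4 to 13.6 in the hypomorph at 18°C, 29.1 to 40.5 in the hypomorph at 29°C, difference -1.85 ± 0.26).

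Cyp6a20, a P450 linked to aggression in males, went the opposite way. It had 42.7, 58.4 and 87.1 normalised counts in WT at 18°C, 60.9, 49.6 and 43.5 in WT at 29°C, 170, 192 and 224 in the hypomorph at 18°C and 14, 25.1 and 34.7 in the hypomorph at 29°C. WT overlapped between temperatures, and the hypomorph lay above WT in the cold and below it in the warmth (0.33 and 2.99, difference 2.66 ± 0.38, adjusted p = 0.0011). Cyp12d1-d (-1.06 and -2.58, difference -1.52 ± 0.23) and Cyp309a2 (-0.43 and -1.64, difference -1.21 ± 0.21) were strengthened. The near copy Cyp12d1-p (difference -1.19) shares much of its sequence with Cyp12d1-d, so their reads are uncertain, and Cyp6a2 was weakened (1.43 and 0.94). The calls of Cyp12d1-p and Cyp6a2 were not made in 10 and 9 of the 12 fits with 1 library left out.

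Among enzymes that conjugate toxins, 2 of 39 glutathione and UDP transferase genes were called (5.13%, beside 2.32% of all genes), both positive. They were GstO1 (0.03 and 0.78) and GstS1 (-0.28 and 0.19), and neither call was firm, as they were not made in 11 and 9 of the 12 fits with 1 library left out (highest adjusted p = 0.099 and 0.0885). Outside the lists, the glutaminyl cyclase gene isoQC had 11968, 11705 and 10162 normalised counts in WT at 18°C and 8674, 9721 and 8888 in WT at 29°C. In the hypomorph it had 4898, 4801 and 5489 at 18°C and 1501, 1561 and 1509 at 29°C. All groups were apart. A small response towards 18°C in WT was larger in the hypomorph (0.31 and 1.73, difference 1.42 ± 0.10, adjusted p = 9.6e-07), the positive difference with the smallest p.

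**Figure D4:**
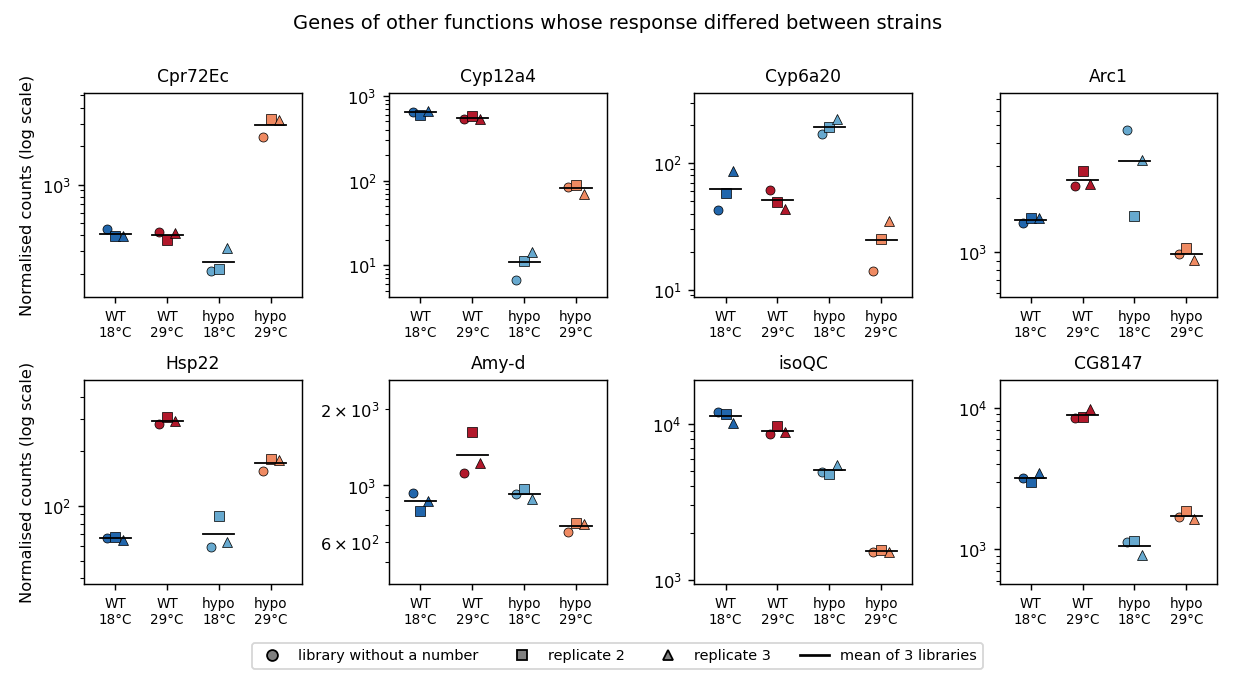
Normalised counts (log scale) of Cpr72Ec, Cyp12a4, Cyp6a20, Arc1, Hsp22, Amy-d, isoQC and CG8147 in the 12 libraries by strain and temperature, with the mean of 3 libraries as a line and the symbol giving the library number. Cpr72Ec stands at 2376 to 3245 in the hypomorph at 29°C and at or below 447 elsewhere, and Cyp6a20 and Arc1 are highest in the hypomorph at 18°C.

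The panels of single genes show gained responses (Cpr72Ec, Cyp12a4, Cyp6a20), reversed ones (Arc1, Amy-d), weakened ones (Hsp22, CG8147) and a strengthened one (isoQC). The alpha-amylase genes Amy-d and Amy-p were the 2 called digestive enzymes of 23 (8.7%, beside 2.32% of all genes), both positive. Amy-d had 932, 793 and 871 normalised counts in WT at 18°C, 1124, 1622 and 1222 in WT at 29°C, 922, 972 and 884 in the hypomorph at 18°C and 656, 713 and 708 in the hypomorph at 29°C. It was higher in the warmth in WT and in the cold in the hypomorph (-0.61 and 0.42, difference 1.03 ± 0.15, adjusted p = 0.0015), and Amy-p lost its response (-0.97 and 0.08, difference 1.05 ± 0.18). The pair is nearly identical in sequence, so the division of reads between them is uncertain. Replicate 2 of WT at 29°C, the library with the gut protease Jon65Aiii at 808, was the highest for both genes (1622 for Amy-d and 1110 for Amy-p), and neither call was lost by leaving it out. For CG8147, current name phu, an alkaline phosphatase, WT had 3182, 3001 and 3432 at 18°C and 8522, 8570 and 9783 at 29°C, against 1127, 1136 and 908 and 1676, 1865 and 1633 in the hypomorph (-1.48 and -0.71, difference 0.77 ± 0.13, adjusted p = 0.0027).

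Heat shock proteins are chaperones whose transcripts rise in the heat under the transcription factor Hsf. Of 27 genes of this list, 19 were higher at 29°C in WT (against 16.1% of all genes tested) and 17 in the hypomorph (against 15.6%). A difference was called for 3 (11.1%, beside 2.32% of all genes), all positive. Members that were not called, the Hsp70 genes among them, were not checked for shared reads, so these counts may hold repeated measurements. Hsp22, a small heat shock protein of the mitochondrial matrix, had 67.1, 67.3 and 64.8 normalised counts in WT at 18°C, 282, 307 and 292 in WT at 29°C, 59.7, 88.2 and 63.2 in the hypomorph at 18°C and 157, 181 and 179 in the hypomorph at 29°C. The strains overlapped in the cold and were apart in the warmth, where WT was higher. The response of Hsp22 was weakened (-2.15 and -1.28, difference 0.87 ± 0.19, adjusted p = 0.021). The call was not made without replicate 3 of WT at 18°C, replicate 3 of WT at 29°C or the unnumbered library of the hypomorph at 29°C (highest adjusted p = 0.0595). Hsp67Bb, current name CG4456, had the same counts as Hsp22 in all 12 libraries, so the 2 called genes are 1 measurement.

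The factor itself, Hsf, had 206, 213 and 213 normalised counts in WT at 18°C, 245, 266 and 239 in WT at 29°C, 282, 274 and 273 in the hypomorph at 18°C and 223, 240 and 213 in the hypomorph at 29°C. It was the hypomorph at 18°C that was highest (-0.25 and 0.29, difference 0.54 ± 0.11, adjusted p = 0.017). Other chaperones had differences that were not called, among them Hsp26 (0.41, adjusted p = 0.46), Hsp23 (-0.83, adjusted p = 0.12), Hsp70Aa (0.02) and Hsp83 (-0.13).

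MtnA, a metallothionein that binds metals, had 7366, 7862 and 7271 normalised counts in WT at 18°C, 18027, 18758 and 17792 in WT at 29°C, 16500, 16882 and 16925 in the hypomorph at 18°C and 23838, 28448 and 29262 in the hypomorph at 29°C. It was higher in the warmth in both strains and its response was weakened in the hypomorph (-1.28 and -0.70, difference 0.58 ± 0.09, adjusted p = 0.0027), where the level in the cold approached that of WT in the warmth. The peroxiredoxin gene Jafrac1, current name Prx2, had a strengthened response (-0.15 and -0.54, difference -0.39 ± 0.08). MtnA and Jafrac1 were the 2 called genes of 13 in the oxidative stress list (15.4%, beside 2.32% of all genes).

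Of 6 Turandot and cold-stress genes, 2 were called (33.3%, beside 2.32% of all genes), in opposite directions. TotX, of a family of secreted stress proteins, was higher at 18°C in both strains and more so in the hypomorph (0.33 and 1.12, difference 0.79 ± 0.16), and smp-30, described above, was the other. TotA, with a response of 2.16 in WT and 2.40 in the hypomorph, had no called difference (0.24 ± 0.41, adjusted p = 0.85), and 1 library of the hypomorph at 18°C stood at 5781 normalised counts against 2595 and 1706 in the others.

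Antimicrobial peptides are secreted by the fat body in infection. Of 24 genes tested, 20 had a difference above 0, with a list median of 0.36 against 0.02 over all genes. The 2 called (8.33%, beside 2.32% of all genes) were Drsl4 and Drsl5, both of the drosomycin family. Drsl4 had 1405, 1351 and 1312 normalised counts in WT at 18°C, 416, 443 and 366 in WT at 29°C, 527, 725 and 580 in the hypomorph at 18°C and 118, 111 and 102 in the hypomorph at 29°C. The levels fell from cold to warmth in both strains and further in the hypomorph (1.73 and 2.47, difference 0.74 ± 0.15, adjusted p = 0.016). Drsl5 was also strengthened (0.75 and 1.47, difference 0.71 ± 0.18). The call of Drsl4 was not made without replicate 3 of the hypomorph at 29°C (adjusted p = 0.0609), and that of Drsl5 was not made in 9 of the 12 fits with 1 library left out (highest adjusted p = 0.112).

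For some of the remaining peptides the call depended on a single library. In the hypomorph at 29°C, AttC had 27.1, 695 and 17.4 normalised counts, Def 29, 381 and 32.8, DptB 90.6, 1083 and 31.8 and Dro 135, 824 and 93.6. Replicate 2 was the high library for each of them, and the other 2 lay below every other library of the series. None of the 4 was called with all libraries. Without replicate 2 of the hypomorph at 29°C, 9 of the 24 genes were called, all of them positive. Over all genes, that fit called 62 positive differences among 9703 genes tested. The 9 were AttC, Def, Dpt, DptB, Dro, Drs, Drsl4, IM18 and Mtk. No gene of the list was called without replicate 3 of the hypomorph at 29°C. The same replicate 2 held 295 normalised counts of Jon65Aiii, against 0 and 2.9 in the other libraries of its group.

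**Figure D5:**
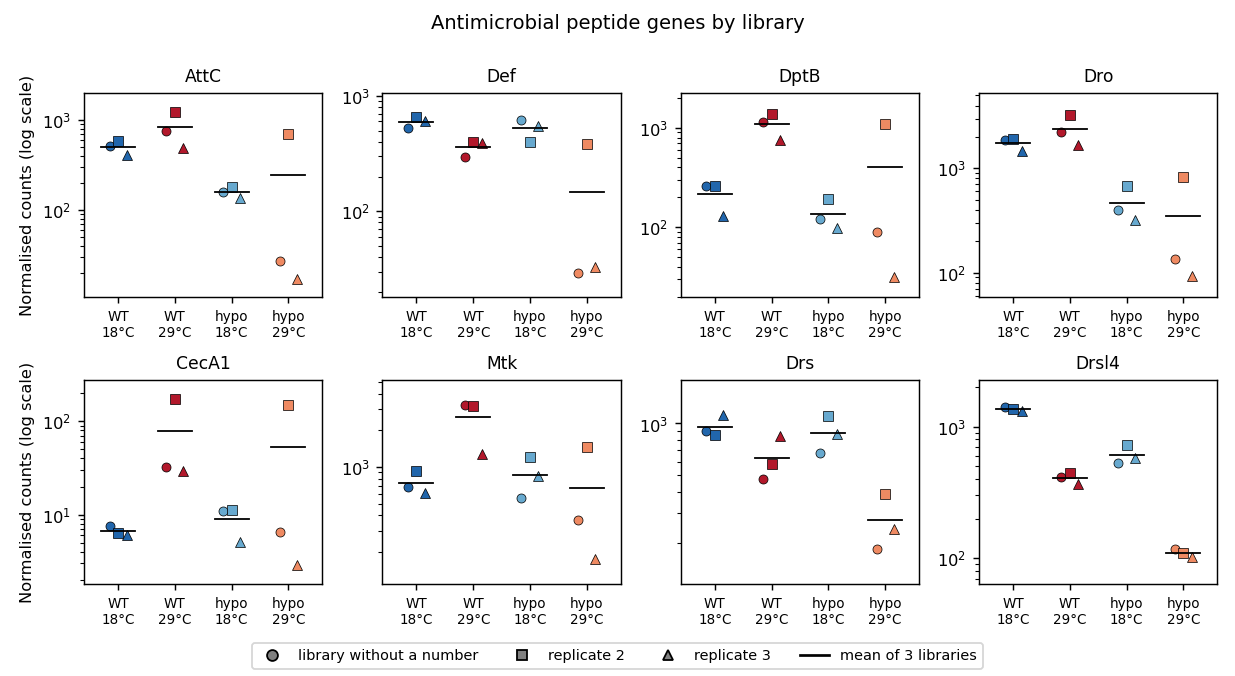
Normalised counts (log scale) of 8 antimicrobial peptide genes (AttC, Def, DptB, Dro, CecA1, Mtk, Drs and Drsl4) in the 12 libraries by strain and temperature, with the mean of 3 libraries as a line and the symbol giving the library number. In the hypomorph at 29°C the square (replicate 2) lies far above the circle and triangle for AttC, Def, DptB, Dro, CecA1 and Mtk, and beside them for Drsl4 (118, 111 and 102).

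The panels of antimicrobial peptide genes show this split within the hypomorph at 29°C. Other immune genes were steadier. PGRP-SD, a pattern recognition receptor for bacteria, had 848, 777 and 593 normalised counts in WT at 18°C, 443, 520 and 453 in WT at 29°C, 757, 801 and 706 in the hypomorph at 18°C and 229, 272 and 274 in the hypomorph at 29°C. The strains overlapped in the cold and the hypomorph was lower in the warmth (0.64 and 1.55, difference 0.90 ± 0.17, adjusted p = 0.0071, edgeR's test). PGRP-SD was the 1 called gene of 19 in its list (5.26%, beside 2.32% of all genes). The C-type lectin gene lectin-28C had a weakened response (-1.28 and -0.38, difference 0.90 ± 0.10, adjusted p = 0.0001), with 1611 to 1792 normalised counts in WT at 29°C and 587 to 848 in the other 9 libraries. None of 33 serpin and melanization genes was called by edgeR's test (7 at an unadjusted p under 0.05), against 3 with DESeq2.

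Called differences were also found for single genes of neurons and sense organs. Whether their transcripts are edited was not tested. Arc1, a capsid-like protein that carries RNA between cells and is induced by neuronal activity, had 1452, 1539 and 1535 normalised counts in WT at 18°C, 2312, 2784 and 2384 in WT at 29°C, 4681, 1591 and 3225 in the hypomorph at 18°C and 979, 1053 and 910 in the hypomorph at 29°C. WT was higher in the warmth and the hypomorph in the cold, where its libraries spread widely (-0.72 and 1.69, difference 2.41 ± 0.34, adjusted p = 0.001). None of the 10 activity-regulated factors in a separate list was called by edgeR's test or by DESeq2 (1 at an unadjusted p under 0.05).

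Of 30 neuropeptide genes, 2 (6.67%) were called, in opposite directions, beside 2.32% of all genes. Under scaling by total counts 1 was negative and 6 were positive. The list median was 0.28 against 0.02 over all genes, with 26 members above 0, a lean that was not tested. Crz, which encodes the stress peptide corazonin, had 194, 159 and 193 normalised counts in WT at 18°C, 213, 241 and 229 in WT at 29°C, 333, 317 and 305 in the hypomorph at 18°C and 247, 226 and 209 in the hypomorph at 29°C. The strains overlapped in the warmth and were apart in the cold (-0.32 and 0.48, difference 0.80 ± 0.14, adjusted p = 0.0042). Nplp3, a neuropeptide-like precursor, lost its response (0.58 and -0.21, difference -0.79 ± 0.13).

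In the eye, ninaA, the chaperone of rhodopsin Rh1, was the called gene of 27 in the phototransduction list (-0.20 and 0.29, difference 0.49 ± 0.12). That made 3.7% of the list, beside 2.32% of all genes. Under scaling by total counts ninaA was 1 of 5, all positive, beside 189 positive differences among all 9553 genes. The call of ninaA was not made in 11 of the 12 fits with 1 library left out (highest adjusted p = 0.12). The opsin gene ninaE was higher in the hypomorph at both temperatures (77058 to 80582 at 18°C and 97425 to 109534 at 29°C, against 11743 to 14174 and 14785 to 19744 in WT), with nearly the same response in both strains (-0.41 and -0.38, difference 0.04 ± 0.13). Of 36 odorant binding protein genes, 3 (8.33%) were called, beside 2.32% of all genes. They were Obp99b as described, Obp49a (gained, 0.07 and 0.57, difference 0.50 ± 0.10) and Obp56d (strengthened, 0.32 and 0.75, difference 0.43 ± 0.09). Under scaling by total counts 1 called gene of the list was negative and 7 were positive. The call of Obp56d was not made in 5 of the 12 fits with 1 library left out (highest adjusted p = 0.0585).

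Of the splicing factors, 1 of 24 was called (4.17%, beside 2.32% of all genes). It was mbl (muscleblind), which had 502, 587 and 495 normalised counts in WT at 18°C, 633, 548 and 552 in WT at 29°C, 838, 641 and 698 in the hypomorph at 18°C and 475, 466 and 483 in the hypomorph at 29°C. WT overlapped between temperatures and the hypomorph did not (-0.13 and 0.61, difference 0.74 ± 0.14, adjusted p = 0.0088). Of 12 genes of Adar and the double-stranded RNA pathway, 1 (8.33%) was called, beside 2.32% of all genes. It was Tudor-SN, a nuclease of the RNA-induced silencing complex (0.70 and 0.22, difference -0.48 ± 0.11). The call of Tudor-SN was not made in 7 of the 12 fits with 1 library left out, nor under scaling by total counts.

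By edgeR's test no member was called in the lists of circadian clock genes (15 tested), voltage-gated ion channels (22), synaptic vesicle release (24), histamine and monoamine transmission (12), neuronal recognition molecules (53), chemosensory receptors (11), glia (15), eye pigment (17), chromophore supply (6), insulin and nutrient signaling (11) and juvenile hormone and ecdysone response (29). At an unadjusted p under 0.05 these lists held 1, 2, 4, 0, 3, 1, 0, 4, 2, 1 and 5 genes, in that order. Over all genes the share was 13.9%. In the same order, 7, 19, 17, 7, 37, 4, 8, 9, 2, 8 and 22 members had a difference above 0. DESeq2 called 1 hormone response gene and no member of the other lists. The clock genes per and tim, for instance, were higher at 18°C in both strains (1.56 and 1.22 for per, 1.14 and 0.89 for tim). Their differences of -0.33 ± 0.26 and -0.25 ± 0.19 were not called. For ion channels the median difference was 0.20, against 0.02 over all genes. Whether any of these lists leaned more than all genes was not tested.

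The remaining genes of the naming rule have other or little known functions. CG3699, which was reversed, had 2279, 2010 and 2314 normalised counts in WT at 18°C, 1653, 1718 and 1545 in WT at 29°C, 1079, 1130 and 1238 in the hypomorph at 18°C and 2301, 2795 and 2685 in the hypomorph at 29°C. The hypomorph in the warmth reached the level of WT in the cold (0.43 and -1.17, difference -1.60 ± 0.12, adjusted p = 1.3e-06).

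CG16926 was strengthened (-0.40 and -1.89, difference -1.49 ± 0.16), and CG15199 reversed (0.91 and -1.12, difference -2.02 ± 0.26). CG15666, current name BBS9, a gene of the ciliary BBSome, had 116, 96.5 and 91.1 normalised counts in WT at 18°C, 250, 317 and 332 in WT at 29°C and 13 to 29 in the 6 hypomorph libraries, with a response of -1.58 in WT and 0.51 in the hypomorph (difference 2.09 ± 0.33). The low level of CG15666 in the hypomorph at both temperatures accompanies the lost response. CG9328 gained a response (0.21 and 1.66, difference 1.45 ± 0.26), and CG15784 and CG17127 were strengthened (differences 1.40 ± 0.26 and 1.21 ± 0.25). Without replicate 3 of the hypomorph at 29°C, CG17127 was not called (adjusted p = 0.0573). The SET domain gene msta, current name SmydA-8, was reversed (-0.53 and 0.34, difference 0.87 ± 0.14), as was CG43322 (-0.83 and 0.85), while CG14329 lost its response (-1.23 and 0.07). Phk-3, a pherokine of the family of chemosensory proteins, was strengthened (-0.33 and -0.86, difference -0.53 ± 0.12), with the call not made in 7 of the 12 fits with 1 library left out.

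Several of the largest differences rest on few counts. CG1722 had 33.4 to 51.9 normalised counts in WT at 18°C, 23.9 to 41.4 in WT at 29°C, 10.4 to 32.6 in the hypomorph at 18°C and 1 count in each library of the hypomorph at 29°C, so its fitted difference of 4.13 ± 0.73 depends on the prior count of the fit and is not a bound. CG7763 (difference -4.39 ± 0.99), CG34281 (-3.71 ± 0.88), CG43293 (3.68 ± 0.85), CG6055 (-2.69 ± 0.61) and CG33791 (-2.61 ± 0.64) had at most 96.2 normalised counts in any library, and their calls were not made in 8 to 11 of the 12 fits with 1 library left out. CG7214 (3.01 and 1.96, difference -1.05 ± 0.25) and CG10962 (1.79 and 0.88, difference -0.92 ± 0.22) had higher levels and weakened responses, with calls not made in 10 and 7 of these fits. CG10962 and the noncoding CR43836 are on the same chromosome and strand, and their counts differed by 0.56% when differences were summed over all libraries. In all, 8 pairs of called genes differed by less than 5% on this measure. When each pair was counted once, 214 called genes remained.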

How the data were processed

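Total RNA of fly heads was sequenced as 3' ends after selection of poly(A) RNA that followed fragmentation and linker ligation. Per the labels and the methods of the study, the authors aligned reads with TopHat to the dm3 genome, assigned them to genes with ESAT, and deposited 1 table of whole-number counts per gene, without normalization. The submitters' processing notes name TopHat and dm3 with no version. Whether counting used strand, and whether molecular identifiers removed PCR copies, is not given in the sources used here. The table pairs symbols with chromosomes but gives no positions, so none are printed. The deposited table has 1 column per group without a replicate number, which was used as a further replicate of its group, and 4 further columns of values, which match none of the 12 samples and were left aside.

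The analysis used R 4.3.3 with edgeR 4.0.16. Low genes were removed with filterByExpr (minimum count 10), and counts were scaled by TMM and fitted with the 4 groups as the only term (biological coefficient of variation 12.9%). Benjamini-Hochberg adjustment covered all 9553 genes, with a threshold of 0.05, and errors are SE of the fit. Normalised counts are scaled to 6952688 counts per library. Counting error alone allows up to 3 counts where a library has 0. On simulated counts with known differences of responses, the test called 187 of 200 genes (93.5%) changed by 1.5 on the log2 scale at 5 CPM or more, with 8 false calls among 9553 genes. The planted size exceeds the median called difference of 0.68, so this rate does not apply to smaller differences. Simulated libraries were independent draws with the fitted spread, so neither figure covers effects of single libraries.

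Genes were named if called with a mean of at least 10 normalised counts in a group. In each class and sign the 4 with the largest difference were taken, and in each list up to 4 called members with the smallest p, plus Adar. Other genes were named after their values were seen. Members and lists were chosen with earlier results of these data known, and the lists of the pentose phosphate pathway and of galactose and UDP-sugar conversion were added in the course of the work. Of the 222 called genes, 221 were matched to a current symbol in a Release 6 table, used only for names.

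Libraries of a group differed by more than sampling noise (chi-square per degree of freedom 3.29 to 9.36). Alternatives were DESeq2 1.42.0, 3 other scalings, 2 other filters, 2 other thresholds, another rule for a response within a strain, the replicate number as a block, and leaving out each of 12 libraries in turn. A fit without both replicate 2 libraries at 29°C, a fit without the yolk protein genes and a fit of the 8 numbered libraries without a block were chosen after seeing the data. Plots used matplotlib 3.10.9 in Python 3.11.15.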

Additional observations from a re-analysis of the deposited data

Results flagged for a closer look

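The difference between the strains was itself tested, by edgeR's quasi-likelihood test across all genes, and 222 genes passed it. The log2 differences of the 81 named genes among them are given here by function, with no explanation.

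Among fat body products they were -6.50 for Fbp1, -6.03 for Fbp2, -5.81 for Lsp1alpha, -5.04 for Lsp2, -1.07 for Yp1, -1.26 for Yp2, -1.07 for Yp3, -1.57 for fit, -0.42 for Rfabg, -1.47 for Obp99b and -0.82 for smp-30. Among enzymes of lipid and sugar metabolism they were -0.66 for ATPCL, -0.59 for AcCoAS, -0.44 for FASN1, -0.52 for GlyP, -0.50 for Gpdh, -0.81 for Sodh-1, -1.79 for tobi, -0.61 for Pgi, -0.38 for Ald, -0.44 for Hex-C and -0.31 for Gapdh1. The amylase genes went the other way, with 1.03 for Amy-d and 1.05 for Amy-p, and so did Gnmt with 2.04.

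In muscle and the respiratory chain the differences were -0.62 for Mlc1, -0.61 for Tm1, -0.55 for up, -0.56 for wupA, -0.57 for ND-13B and -0.38 for Cyt-c1. Among cuticle and P450 genes they were -3.59 for Cpr72Ec, -1.0 for Cpr47Ea, 2.24 for Ccp84Ag, -1.40 for Cda4, -3.03 for Cyp12a4, -1.52 for Cyp12d1-d, -1.21 for Cyp309a2 and 2.66 for Cyp6a20. Stress genes had 0.87 for Hsp22, 0.87 for Hsp67Bb, 0.54 for Hsf, 0.58 for MtnA, -0.39 for Jafrac1 and 0.79 for TotX. Conjugation genes had 0.76 for GstO1 and 0.47 for GstS1. The glutaminyl cyclase gene isoQC, of neither group, had 1.42. Immune genes had 0.74 for Drsl4, 0.71 for Drsl5, 0.90 for PGRP-SD and 0.90 for lectin-28C.

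Genes of neurons, sense organs and RNA had 2.41 for Arc1, 0.80 for Crz, -0.79 for Nplp3, 0.49 for ninaA, 0.50 for Obp49a, 0.43 for Obp56d, -0.53 for Phk-3, 0.74 for mbl and -0.48 for Tudor-SN. Genes of other or little known functions had -1.60 for CG3699, -1.49 for CG16926, -2.02 for CG15199, 2.09 for CG15666, 0.77 for CG8147, 0.87 for msta, 1.45 for CG9328, 1.40 for CG15784, 1.21 for CG17127, 1.30 for CG14329, 1.68 for CG43322, -1.05 for CG7214, -0.92 for CG10962 and -0.94 for CR43836. Genes with low counts had 4.13 for CG1722, -4.39 for CG7763, -3.71 for CG34281, 3.68 for CG43293, -2.69 for CG6055 and -2.61 for CG33791.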

How the results depend on the processing

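No named gene changed the sign of its difference in any of the 22 other fits. Of the 81 named genes with a call, 29 kept it in every fit that tested them and 55 in all 12 fits that left out 1 library, and 125 of the 222 genes were called in all 12 of these. DESeq2 called 311 genes, 204 of them among the 222, with 54 weakened responses against 30. Scaling by total counts gave 189 positive differences against 61 and 99 gained responses against 57, with 36.4% of called differences negative against 72.5%. Testing all genes with at least 1 count gave 113 lost responses against 73, and sorting by unadjusted p gave 45 reversed ones against 29. At an adjusted p under 0.1, 368 genes were called (251 negative, 117 positive, with 130 lost, 52 weakened, 105 gained and 50 strengthened responses), and with a difference beyond 1, 66 (50 negative, 16 positive, with 21 lost, 2 weakened, 15 reversed, 18 gained and 10 strengthened). Leaving out 1 library gave 154 to 214 genes, 107 to 155 of them negative and 41 to 62 positive, with 47 to 75 lost, 17 to 30 weakened, 22 to 34 reversed, 37 to 59 gained and 20 to 38 strengthened responses. Strengthened responses numbered 20, 21, 20 and 20 without replicate 2 or 3 of WT at 18°C or without the unnumbered library or replicate 3 of WT at 29°C, and weakened ones 19 without replicate 3 of the hypomorph at 18°C. Without both replicate 2 libraries at 29°C, 164 genes were called, with 18 weakened and 20 strengthened responses. The correlation of deviations from the group means averaged -0.0032 over libraries that share a number and 0.0135 over the others. Between the strains at 29°C it was 0.226 for number 2 and 0.231 for number 3, against -0.144 and -0.297 for unlike numbers, while at 18°C it was -0.03 and -0.053. A replicate block on the 8 numbered libraries gave 77 called genes (55 negative, 22 positive, with 19 lost, 10 weakened, 16 reversed, 24 gained and 8 strengthened responses), and without the block in the same 8 libraries, 69 (55 negative, 14 positive, with 14 lost, 10 weakened, 16 reversed, 25 gained and 4 strengthened). These fits have fewer libraries than the main one, and the causes of the other shifts were not tested. Differences in genes of few counts are limited by depth.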

Other observations

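The genes below belong to no list of the report and were chosen after their values were seen. Ef1beta, a subunit of the translation elongation factor complex, had 5633, 5831 and 5548 normalised counts in WT at 18°C, 8037, 8595 and 8056 in WT at 29°C, 3419, 4298 and 3924 in the hypomorph at 18°C and 8426, 8762 and 8713 in the hypomorph at 29°C. It was higher in the warmth in both strains and lowest in the hypomorph in the cold (-0.54 and -1.15, difference -0.62 ± 0.10, adjusted p = 0.0024). Nurf-38, the inorganic pyrophosphatase, had the same form (-0.81 and -1.30, difference -0.49 ± 0.08). Adgf-D, a secreted adenosine deaminase, had 201 to 246 normalised counts in the hypomorph at 18°C, 403 to 446 in the hypomorph at 29°C and 548 to 618 in WT (0.08 and -0.87, difference -0.95 ± 0.12). In the eye, sev, the receptor tyrosine kinase of the R7 photoreceptor, and its ligand boss gained responses towards 18°C (0.63 and 0.40, against 0.04 and 0.01 in WT), with calls not made in 8 and 12 of the 12 fits with 1 library left out.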
